A study of Mus musculus with 24 samples.

Results

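Gastrocnemius muscle of mice whose hindlimbs had been casted while they received the peptide MOTS-c was compared with muscle of mice that had not been casted. The members are libraries, chosen by their labels: 16 of the 24 in the series, 8 labelled casted with MOTS-c and 8 labelled uncasted control, with 1 library per mouse. All were male C57BL/6J mice, obtained at 10 weeks of age and labelled 12 weeks old. The casted mice had casting material on both hindlimbs for 8 days and over those 8 days were given MOTS-c, 15 mg/kg/day divided over 2 injections into the peritoneum. The uncasted mice were injected with sterilized water on the same schedule. The other 8 mice of the series were casted and received water, and the labels name no group given MOTS-c without a cast. Casting and peptide therefore cannot be told apart within the comparison made here, except where the water-treated casted mice are brought in.

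MOTS-c is a short peptide encoded within the gene of the mitochondrial 12S ribosomal RNA and is studied as a regulator of muscle metabolism. A muscle held still in a cast loses mass, because contractile proteins are broken down faster than they are made. Known parts of that response are the ubiquitin ligases and the proteasome, which tag and degrade proteins, autophagy, the insulin and FoxO signals that govern these routes, and a loss of mitochondrial and contractile gene expression.

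The values are TPM, which give each gene's length-corrected share of a library. They were scaled here between libraries so that the middle of the distribution of genes matched, and tested with limma on log2(scaled TPM + 1). A gene is said to have risen or fallen where its p adjusted by the Benjamini-Hochberg method was below 0.05. Where a gene's rise, fall or difference is given as a plain number, that number is a log2 fold change. Of 13933 genes tested, 3621 were higher after casting with MOTS-c (26.0%) and 3507 lower (25.2%), and the other 6805 did not pass. Changes of more than 2-fold were far fewer, 312 upward (2.24%) and 273 downward (1.96%). In 1045 genes (7.50%) every MOTS-c library lay above every uncasted library, and in 1143 genes (8.20%) every one lay below. Genes named below by steepness or smallest p were picked from these same libraries. That their groups do not overlap describes their values and is no further support.

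TPM are shares, so the direction of small changes depends on the scaling. On TPM as deposited, the log2 fold change of the median gene was 0.35, against 0.01 after scaling. There, 8510 genes were called higher (61.1%) and 1021 lower (7.33%), so that rises made up 89.3% of the calls in place of 50.8%. Here a direction is relative to the scaled middle of all genes, and beside the counts of each gene list the rises and falls called on TPM as deposited stand in parentheses. The lists were written from general knowledge of muscle, but with earlier results of these data known, so their counts are a description. They stand against the 26.0% of all genes called higher and the 25.2% called lower. A count near those shares says nothing particular of its list.

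Between 19832 and 21008 genes had a nonzero TPM in an uncasted library, and between 20859 and 21755 in a MOTS-c library. The mean was 887 genes higher with MOTS-c (exact two-sided permutation p = 0.0004662, also the value adjusted over 5 library measures). Depth is unknown, and its part in this difference was not tested. At most 0.682% of the tested genes had equal values in any 2 of the 16 libraries. The tissue label fitted the fibre markers: the summed scaled TPM of Acta1, Ckm, Myh4, Mb, Tnnt3, Des and Ttn ran from 101256 to 115186 in the uncasted and from 51867 to 88466 in the MOTS-c libraries. The MOTS-c libraries spread more widely than the uncasted ones. On the first principal component of the tested genes, which held 54.8% of the variance, the uncasted libraries lay between -28.4 and -26.9, and 7 MOTS-c libraries between 25.6 and 41.8. MOTS-c replicate 5 lay at -3.38, between the groups. The share of genes with a larger SD of log2 values among MOTS-c than among uncasted libraries was 68.5%, and 63.6% without replicate 5. Leaving that library out gave 3805 rises and 3669 falls, with 1684 and 1642 genes not overlapping, and moved the calls of 2 of the 158 genes named by rule. Why the library stood apart was not tested.

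**Figure D1:**
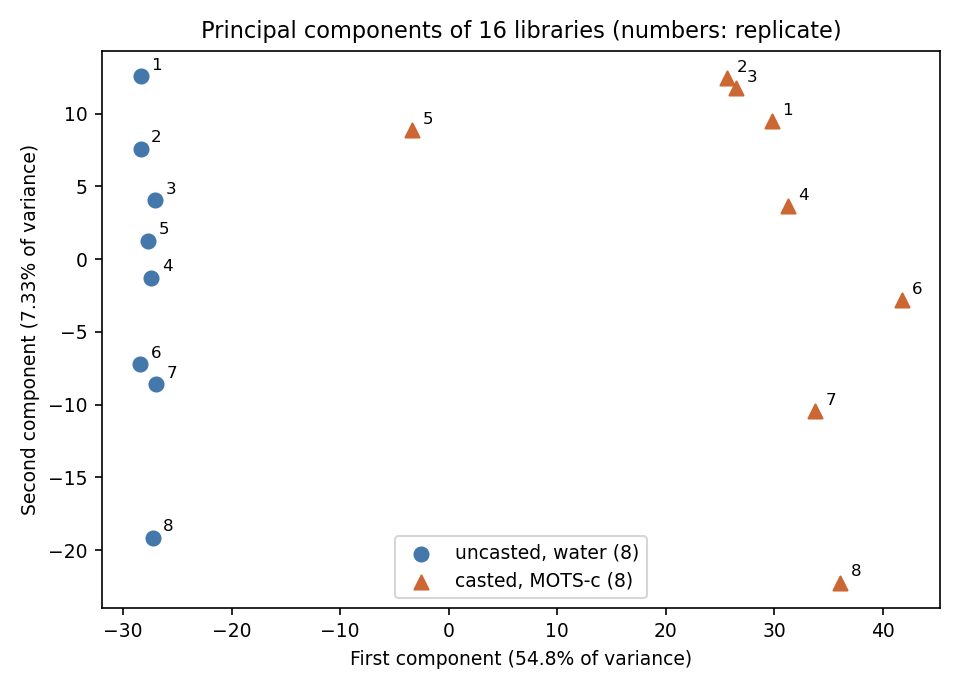
Principal components of log2(scaled TPM + 1) over 13933 genes; each point is 1 of 16 libraries, numbered by replicate, and the axes are component scores with the percent of variance. The uncasted libraries form a narrow column near -28, and MOTS-c replicate 5 lies at -3.38 on the first component, apart from the other MOTS-c libraries.

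The largest fall was that of Actc1, which encodes cardiac alpha-actin (chr2:114047282-114053548, GENCODE M21 on GRCm38). Its values ran from 432 to 841 scaled TPM (median 600.4) in the uncasted libraries and from 7.05 to 54.4 (median 11.1) in the MOTS-c libraries. The highest MOTS-c library was far below the lowest uncasted library. The log2 fold change was -5.31 ± 0.34 (SE; limma adjusted p = 5.2e-09). Nrep, a gene named for neuronal regeneration, went from 144 ± 5.84 to 13.5 ± 12.4 scaled TPM (mean ± SD, n = 8, as in all such pairs below), with a log2 fold change of -3.65 ± 0.30 (SE; limma adjusted p = 3.9e-08). Its uncasted libraries were close together, between 132 and 151, and the MOTS-c libraries reached from 4.99 to 42.5, the top value being that of replicate 5.

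Polyamine enzymes were among the steepest falls. Amd1, which encodes S-adenosylmethionine decarboxylase, ran from 1026 to 1382 scaled TPM (median 1314) in the uncasted libraries and from 72.5 to 719 (median 127) in the MOTS-c libraries. The groups did not overlap, although replicate 5, at 719, was far above the next MOTS-c value of 181. The log2 fold change of Amd1 was -3.05 ± 0.31 (SE; limma adjusted p = 4.4e-07). Its near-identical copies Amd2 (-2.66) and the pseudogene Amd-ps3 (-2.9) fell with it, so reads of the 3 cannot be told apart with certainty. Smox, which encodes spermine oxidase, fell by 2.33 (SE 0.38, limma adjusted p = 6.1e-05). In 7 of 8 MOTS-c libraries Smox was below every uncasted value, while replicate 5, at 454, lay within the uncasted range of 287 to 460.2. Odc1, which encodes ornithine decarboxylase at the head of the same pathway, rose from 113 ± 17 to 227 ± 34.8 scaled TPM. For polyamine and creatine metabolism, of 18 members, 4 rose and 13 fell (6 and 10 as deposited), with a median log2 fold change of -0.73. Its falls included the creatine kinases Ckm (-0.80) and Ckmt2 (-1.88) and the adenylate kinase Ak1 (-1.36), and the AMP deaminase gene Ampd3 rose (2.4).

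The other leading falls were Mettl21c, which encodes a lysine methyltransferase (from 124 ± 17 to 24.1 ± 29.7 scaled TPM, log2 fold change -2.84), Ostn, which encodes the secreted peptide musclin (-2.52), Fgfbp1, which encodes a carrier of fibroblast growth factors (-2.25), and Mlf1 (-2.12). In each of these 4 genes every MOTS-c library was below every uncasted library. They were picked as steep falls in the same libraries, so this describes their values only. Mettl21c, Ostn, Mlf1 and Actc1 have annotated overlapping transcripts, and the strand setting of the libraries is not stated.

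**Figure D2:**
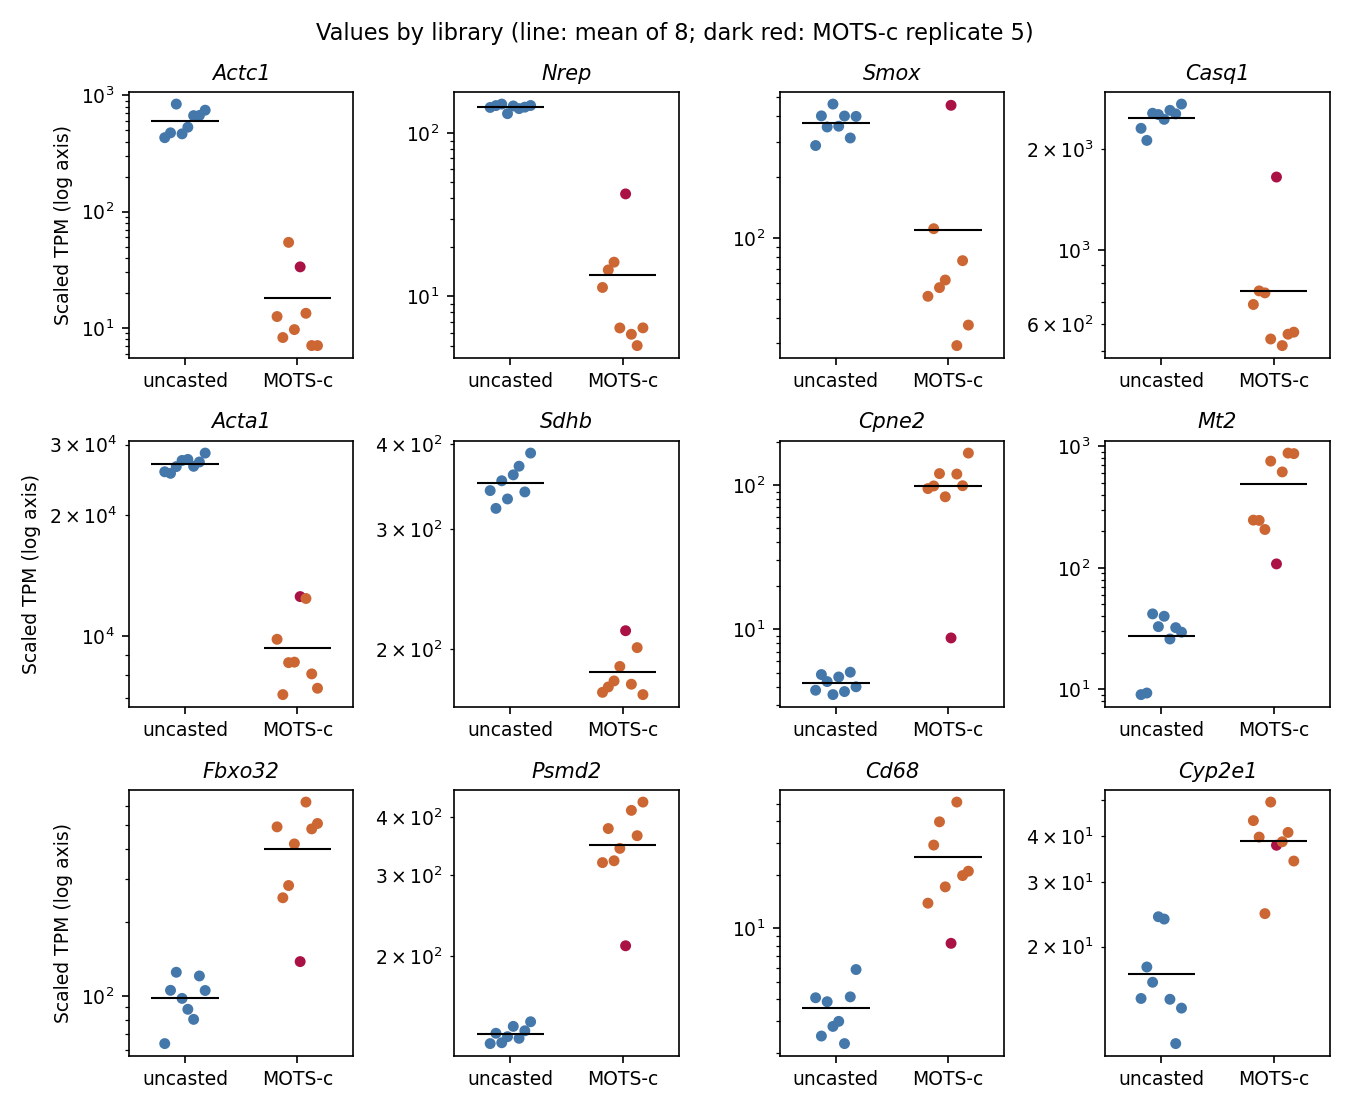
Scaled TPM (log axis) of 12 genes in the 8 uncasted and 8 MOTS-c libraries; each point is 1 library, the line is the group mean, and the dark red point is MOTS-c replicate 5. The groups are apart in 11 of the panels, and in the Smox panel replicate 5 lies among the uncasted points.

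Cpne2, which encodes a calcium-dependent membrane-binding copine (chr8:94532990-94570531), showed the largest rise. It ran from 3.53 to 5.04 scaled TPM (median 4.17) in the uncasted libraries and from 8.71 to 166 (median 98.7) in the MOTS-c libraries. Every MOTS-c library was above every uncasted library, and replicate 5 was the one at 8.71. The log2 fold change was 3.96 ± 0.40 (SE; limma adjusted p = 3.6e-07). Mt2, a metallothionein gene whose product binds zinc and other metals (chr8:94172664-94173568), ran from 9.06 to 41.8 scaled TPM (median 30.9) in the uncasted libraries and from 108 to 881 (median 432) in the MOTS-c libraries. Again the groups did not overlap, and the log2 fold change was 3.93 ± 0.44 (SE; limma adjusted p = 1.1e-06). Its neighbour Mt1 (chr8:94179082-94180327) rose as well (from 29.6 ± 12.1 to 228 ± 156 scaled TPM, 2.68).

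The promoters of both metallothionein genes are shown because they are among the largest rises and lie next to each other. Metallothionein promoters are known for short metal response elements, bound by the zinc-sensing factor MTF-1. The sequences are the 150 bases before each annotated start, on the + strand, from RefSeq (GRCm38.p6): chr8:94172468-94172617 for Mt2 and chr8:94178939-94179088 for Mt1. Capitals mark matches on either strand to TGCNCNC, a shortened form of that element.
Mt2: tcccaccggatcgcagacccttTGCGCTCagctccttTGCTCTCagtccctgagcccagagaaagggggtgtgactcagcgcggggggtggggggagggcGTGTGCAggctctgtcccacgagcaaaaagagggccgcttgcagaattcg
Mt1: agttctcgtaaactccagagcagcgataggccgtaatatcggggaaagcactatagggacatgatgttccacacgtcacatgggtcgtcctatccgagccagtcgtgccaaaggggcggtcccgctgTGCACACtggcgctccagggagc
The Mt2 window held 3 matches and the Mt1 window 1. These counts hold for the printed windows, which end at the starts annotated in RefSeq, and bases after those starts were not searched. The Mt2 window stops before the GENCODE M21 start given above, and the Mt1 window runs past its own. The counts therefore do not show how many such elements either promoter holds, or that the promoters differ. Over 250 bases before the start, 3 of 3 metallothionein genes tested held a match, against 57.3% of 9881 tested genes with a promoter in the RefSeq table. A match to so short a motif is common and describes letters only. Among other genes of zinc handling the picture was mixed. In the list of metallothioneins and zinc transporters, of 15 members, 5 rose and 3 fell (11 and 0 as deposited), with a median log2 fold change of 0.05. The mitochondrial zinc exporter gene Slc30a9 fell (-0.52) but was not called as deposited (-0.09, limma adjusted p = 0.256).

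The remaining leading rises were Aif1l, which encodes an actin-binding protein (from 1.99 ± 0.809 to 43.4 ± 24.9 scaled TPM, 3.63), Ankrd1, which encodes a stretch-responsive titin-binding protein (from 5.89 ± 3.35 to 74.7 ± 30.7 scaled TPM, 3.39), and Serpina3n, which encodes an acute-phase protease inhibitor (from 1.26 ± 0.5 to 26.7 ± 16.9 scaled TPM, 3.38). Sln, the gene of sarcolipin, an inhibitor of the calcium pump, rose from 0.719 ± 0.475 to 19.2 ± 12 scaled TPM (3.35). Lgals3 (galectin-3) rose by a log2 fold change of 3.04, Depp1, a FoxO target, by 2.95, Gadd45a by 2.81 and the ectodysplasin receptor gene Eda2r by 2.77. Of these 8 genes, picked as steep rises in the same libraries, 6 had every MOTS-c library above every uncasted one. In Depp1 and Eda2r, 7 of 8 were above, and replicate 5 lay within the uncasted range (17 and 8.09 scaled TPM). Aif1l, Depp1, Gadd45a and, above, Mt2 have annotated overlapping transcripts on the other strand, and the strand setting of the libraries is not stated. Depp1 is overlapped over its whole length, by Rassf4.

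Of the genes of protein breakdown, the whole proteasome list and most of the autophagy and lysosome list were higher than in uncasted muscle. The ubiquitin ligases moved in both directions. Fbxo32, which encodes the muscle ubiquitin ligase atrogin-1, ran from 63.9 to 125 scaled TPM (median 101) in the uncasted libraries and from 138 to 620.3 (median 450.1) in the MOTS-c libraries. No library of either group overlapped with the other, and the log2 fold change was 1.91 ± 0.24 (SE; limma adjusted p = 4.7e-06). Trim63, which encodes the ligase MuRF1, rose from 277 ± 93.1 to 993 ± 465 scaled TPM (1.77 ± 0.30 (SE; limma adjusted p = 9.7e-05)), with 7 of 8 MOTS-c libraries above the uncasted range. In the ligase list as a whole, of 20 members, 9 rose and 6 fell (15 and 2 as deposited), with a median log2 fold change of 0.11. Fbxo30 (1.13), Fbxo31 (0.65) and the Kelch genes Klhl40 (0.43) and Klhl41 (0.47) rose, and the relatives of MuRF1, Trim55 (-0.71) and Trim54 (-0.26), fell. Trim55 was lower as deposited too (-0.29). The fall of Trim54 was smaller than the shift of the median gene between the scales, so its direction depends on the scaling.

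The proteasome is the barrel-shaped protease that degrades ubiquitin-tagged proteins. Of 33 subunit genes tested all 33 rose, on both scales, with a median log2 fold change of 0.77 and a range of 0.21 to 1.36. Psmd2, a base subunit of the regulatory particle, ran from 129 to 144 scaled TPM (median 135) in the uncasted libraries and from 211 to 432 (median 354) in the MOTS-c libraries. Its groups did not overlap, and the log2 fold change was 1.33 ± 0.11 (SE; limma adjusted p = 3.5e-08). Psmd4, a ubiquitin receptor, rose from 119 ± 9.83 to 311 ± 83 scaled TPM (1.34). In 18 of the 33 genes every MOTS-c library was above every uncasted one, as was so in 7.50% of all genes tested. In the autophagy and lysosome list, of 33 members, 22 rose and 2 fell (32 and 0 as deposited), with a median log2 fold change of 0.46. Map1lc3a, which encodes a coat protein of the autophagosome, rose from 127 ± 11 to 291 ± 34.2 scaled TPM (1.18), and the lysosomal membrane gene Lamp2 rose by 0.57. Atg12 fell (-0.22), but the sign turned as deposited (0.17, limma adjusted p = 0.0699).

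Among upstream signals, members of the growth-factor pathway changed in both directions. For insulin, IGF, FoxO and mTOR signalling, of 29 members, 10 rose and 5 fell (21 and 2 as deposited), with a median log2 fold change of 0.14. Eif4ebp1, which encodes a repressor of cap-dependent translation, rose from 36.7 ± 5.04 to 141 ± 57.6 scaled TPM (1.81). Akt1, a kinase downstream of the insulin receptor, rose from 27.3 ± 1.12 to 75.3 ± 18.5 scaled TPM (1.38). The docking protein gene Irs1 fell (-1.1). Of the FoxO factors, Foxo1 (0.71) and Foxo3 (0.35) rose, and Foxo6 fell from 3.89 ± 0.417 to 0.782 ± 0.361 scaled TPM (-1.48). Foxo1 did not pass when genes of low TPM were also tested (limma adjusted p = 0.0562) or without MOTS-c replicates 2 and 6 (0.0532), and Foxo3 did not without uncasted replicates 1 and 2 (0.0771). Igf1 was 13.3 ± 2.35 and 11.3 ± 3.28 scaled TPM and did not pass (limma adjusted p = 0.188).

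Myostatin, encoded by Mstn, is a secreted inhibitor of muscle growth. It ran from 51.9 to 66.7 scaled TPM (median 61.3) in the uncasted libraries and from 30.1 to 59.4 (median 39.5) in the MOTS-c libraries. In 7 of 8 MOTS-c libraries Mstn was below the uncasted range, replicate 5 being the exception. The log2 fold change was -0.65 ± 0.11 (SE; limma adjusted p = 0.000124). For myostatin, activin and BMP signalling, of the 23 members, 22 were tested: 5 rose and 5 fell (10 and 2 as deposited), with a median log2 fold change of -0.07. Both counts lie near the shares of all genes called. The receptor genes Tgfbr1 (1.04) and Acvr2a (0.42) rose, and Ltbp4, which encodes a binding protein of latent TGF-beta, fell (-0.76).

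Genes of mitochondrial energy metabolism were lower than in uncasted muscle. Of 77 nuclear genes of oxidative phosphorylation 73 fell and the other 4 did not pass, with a median log2 fold change of -0.59. As deposited, 42 were lower and 7 higher, with a median of -0.16. Sdhb, a succinate dehydrogenase subunit of complex II, ran from 322 to 388 scaled TPM (median 347) in the uncasted libraries and from 172 to 213 (median 179) in the MOTS-c libraries. The groups were widely apart and each was narrow, with a log2 fold change of -0.92 ± 0.06 (SE; limma adjusted p = 5.2e-09). Cyc1, the cytochrome c1 of complex III, fell from 378 ± 21.7 to 184 ± 21.9 scaled TPM (-1.05). In 57 of the 77 genes every MOTS-c library was below every uncasted one, as was so in 8.20% of all genes tested.

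All 13 protein-coding genes of the mitochondrial genome fell, with a median of -0.80, and 12 of them were lower as deposited. mt-Nd3, a subunit of complex I, fell from 2838 ± 387 to 1424 ± 293 scaled TPM (-1.01), and mt-Co1, a subunit of cytochrome oxidase, by a log2 fold change of -0.83. mt-Rnr1 (chrM:70-1024), the 12S ribosomal RNA gene within which MOTS-c is encoded, ran from 2002 to 3004 scaled TPM (median 2246) in the uncasted libraries and from 739 to 1343 (median 1059.6) in the MOTS-c libraries, for such RNA as the poly-A capture kept. The groups did not overlap, and the log2 fold change was -1.2 ± 0.12 (SE; limma adjusted p = 3.0e-07). Genes on the mitochondrial genome made up 21.5 ± 0.75% of the deposited TPM in uncasted libraries and 17.1 ± 1.61% in MOTS-c libraries. The difference of -4.41 percentage points had an exact two-sided permutation p of 0.0001554 (0.0003885 adjusted over 5 library measures), the smallest that 12870 splits of 8 against 8 allow. Replicate 5 had the highest share of the MOTS-c libraries, 20.3%. The 16 nuclear near-copies of mitochondrial genes, at 90% identity or more over 80% of their length, held a further 17.8 ± 0.93% of the deposited TPM in uncasted and 15.1 ± 0.90% in MOTS-c libraries (difference -2.72 percentage points, exact two-sided permutation p = 0.0004662, also the adjusted value). How reads were divided between the mitochondrial genes and these copies is not known.

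In the TCA cycle and pyruvate entry, of 26 members, 1 rose and 18 fell (7 and 11 as deposited), with a median log2 fold change of -0.49. Dlat, the acetyltransferase of the pyruvate dehydrogenase complex, fell from 109 ± 2.06 to 65.1 ± 6.05 scaled TPM (-0.73), and the malate dehydrogenase gene Mdh1 by a log2 fold change of -0.76. The member that rose was Pdk4, which encodes a kinase that switches pyruvate dehydrogenase off. It ran from 289 to 883 scaled TPM (median 726) in the uncasted libraries and from 950.3 to 1729 (median 1314) in the MOTS-c libraries. All 8 MOTS-c libraries were above all uncasted ones, and the log2 fold change was 1.03 ± 0.20 (SE; limma adjusted p = 0.000348). In fatty acid uptake and oxidation, of 30 members, 4 rose and 20 fell (12 and 7 as deposited), with a median log2 fold change of -0.37. The median turned to 0.06 on that scale. The thiolase genes Acaa2 (-1.27) and Hadhb (-0.72) fell, while Eci2, an isomerase of unsaturated fatty acids, rose from 61.6 ± 3.96 to 96.1 ± 12.9 scaled TPM (0.62).

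Regulators of mitochondria moved less evenly. In that list, of 23 members, 2 rose and 13 fell (11 and 5 as deposited), with a median log2 fold change of -0.31. The deacetylase gene Sirt3 (-1.06) and the nuclear receptor gene Esrra (-0.98) fell. Ppargc1a, which encodes the coactivator PGC-1alpha, fell by 0.55 (SE 0.15, limma adjusted p = 0.00564), but was not called as deposited (-0.13, limma adjusted p = 0.453). In glycolysis and glycogen, of 28 members, 3 rose and 19 fell (9 and 15 as deposited), with a median log2 fold change of -0.62. The lactate dehydrogenase gene Ldhb (-1.33) and the phosphoglycerate kinase gene Pgk1 (-1.09) fell, and the glycogen branching enzyme gene Gbe1 rose (from 24 ± 2.02 to 48 ± 10.8 scaled TPM, 0.94).

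Contractile genes fell, most of all those of fast fibres, the main fibre kind of this muscle. Acta1, which encodes skeletal alpha-actin, ran from 25459 to 28598 scaled TPM (median 26837) in the uncasted libraries and from 7154 to 12553 (median 8606) in the MOTS-c libraries. The groups did not overlap, and the log2 fold change was -1.55 ± 0.12 (SE; limma adjusted p = 1.9e-08). In bulk muscle, fewer cells of a type and less RNA per cell cannot be told apart, here or for the cell type markers below. Of 17 fast-fibre genes 1 rose and 15 fell (2 and 10 as deposited), with a median of -0.81. Casq1, the calcium store protein of the sarcoplasmic reticulum, ran from 2127 to 2731 scaled TPM (median 2547) in the uncasted libraries and from 519 to 1653 (median 628) in the MOTS-c libraries. Replicate 5 supplied the top MOTS-c value, yet it was still below every uncasted library. The log2 fold change was -1.82 ± 0.18 (SE; limma adjusted p = 2.4e-07). Sypl2, which encodes a triad membrane protein, fell by a log2 fold change of -1.84. Myh1, the type 2X myosin heavy chain gene, was the member that rose (from 821 ± 104 to 1262 ± 507 scaled TPM, 0.55). Its antisense transcript Myhas lies across it, and MOTS-c replicate 6 had the top value, 2465.

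Of 16 slow-fibre genes 9 fell and the other 7 did not pass; as deposited, 2 were lower and 3 higher, and the medians were -0.40 scaled and -0.03 deposited. MOTS-c replicates 2 and 6 were lowest, with mean levels of -1.22 and -0.98 relative to uncasted libraries, while the other 6 lay between -0.44 and -0.02. Without both, an alternative chosen after seeing the data, 8 fell and 0 rose, and the median was -0.33. Myl3, the slow ventricular light chain, fell from 328 ± 20.4 to 93.9 ± 35 scaled TPM (-1.87), and the troponin gene Tnnt1 by 0.82, though as deposited Tnnt1 was not called (-0.39, limma adjusted p = 0.0696). Tnnt1 was 61.8 and 50.7 scaled TPM in MOTS-c replicates 2 and 6 and from 114 to 154 in the other MOTS-c libraries. Its log2 fold change without replicates 2 and 6 was -0.53 (limma adjusted p = 0.000143). Among genes of the Z-disc, titin and costameres, which anchor the contractile filaments, of 25 members, 9 rose and 8 fell (19 and 3 as deposited), with a median log2 fold change of 0.06. Desmin, encoded by Des, rose from 1533 ± 82.6 to 2827 ± 220.3 scaled TPM (0.88), and the Z-disc gene Mypn rose by 0.64. Itgb1bp2, which encodes melusin, fell from 115 ± 11.3 to 34.8 ± 9.48 scaled TPM (-1.73).

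In calcium handling and excitation-contraction coupling, of 27 members, 5 rose and 15 fell (11 and 5 as deposited), with a median log2 fold change of -0.27. As deposited the median was 0.16, so that the middle of the list changed sign. The junctophilin gene Jph2, whose product holds the triad together, fell from 235 ± 16.2 to 75.1 ± 31.1 scaled TPM (-1.72), Stac3 by 0.78, and the kinase subunit gene Camk2b rose (from 65.6 ± 4.85 to 113 ± 6.66 scaled TPM, 0.78). Among stretch-responsive genes, of 14 members, 4 rose and 3 fell (8 and 3 as deposited), with a median log2 fold change of 0.12. The scaled counts lie near the shares of all genes called. Beside Ankrd1, the matricellular gene Ccn1 rose from 13.9 ± 4.59 to 57 ± 16.1 scaled TPM (1.97). Mybph, which encodes a myosin-binding protein, fell from 158 ± 24.1 to 39.7 ± 11 scaled TPM (-1.99).

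Genes that respond to loss of nerve input were more often higher than lower. Chrna1, the alpha subunit of the acetylcholine receptor, ran from 4.07 to 5.86 scaled TPM (median 5.07) in the uncasted libraries and from 8.38 to 23 (median 17.3) in the MOTS-c libraries. The groups did not overlap, and the log2 fold change was 1.54 ± 0.14 (SE; limma adjusted p = 1.5e-07). Chrnb1 rose from 19.3 ± 2.54 to 49.9 ± 7.88 scaled TPM (1.32), the transcription factor gene Myog by 0.73, Runx1 by 2.31 and Ncam1 by 1.44. Dach2, which encodes a repressor of Myog, fell (-0.69), as did Ache (-1.0) and Dok7 (-0.93). For denervation-responsive and neuromuscular junction genes, of the 25 members, 23 were tested: 12 rose and 7 fell (14 and 4 as deposited), with a median log2 fold change of 0.26.

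NF-kB is a family of transcription factors of inflammation that also acts in disused muscle. In the list of its factors, targets and cytokines, of the 28 members, 22 were tested: 14 rose and 1 fell (20 and 0 as deposited), with a median log2 fold change of 0.75. The subunit gene Nfkb2 rose (2.58; means from 4.24 to 35.8 scaled TPM), as did Relb (1.54), Rela (0.83) and Map3k14 (1.98), the kinase that activates the Nfkb2 product. The chemokine gene Ccl8 was low in uncasted muscle, at 0.233 ± 0.27, and reached 5.67 ± 3.21 (2.31). A gene so low in uncasted muscle could pass the filter through the MOTS-c libraries alone. Cxcl12 fell (-0.41), but on the deposited scale its difference was 0.01. Il6 was below the filter and was not tested. A loose form of the NF-kB site, GGG and CC with 5 bases between, stood in 14 of 17 promoters of the list (82.4%; 250 bases before the start, either strand) and in 66.3% of all tested genes with a promoter. For the proteasome, TGACNNNGC, a shortened antioxidant response element, was in 5 of 27 promoters (18.5%) against 14.1%.

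Growth-arrest genes included some of the strongest rises. Cdkn1a, which encodes the cell cycle inhibitor p21, rose from 8.48 ± 3.03 to 36.5 ± 18.3 scaled TPM (1.9 ± 0.30 (SE; limma adjusted p = 4.0e-05)), with the groups apart. Gadd45a ran from 20.9 to 32 scaled TPM (median 28.3) in the uncasted libraries and from 35.4 to 324 (median 245) in the MOTS-c libraries. The groups did not overlap, but replicate 5 was at 35.4, just above the uncasted range. For p53 targets and growth arrest, of the 20 members, 19 were tested: 8 rose and 1 fell (16 and 1 as deposited), with a median log2 fold change of 0.22. Ccng1, a cyclin gene induced by p53, fell from 584 ± 38.8 to 297 ± 29.2 scaled TPM (-0.98).

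Among glucocorticoid-responsive genes, of 19 members, 9 rose and 2 fell (14 and 1 as deposited), with a median log2 fold change of 0.36. Uncasted replicates 1 and 2 stood apart in this list, with mean levels of -0.83 and -0.47 relative to the uncasted mean, while the other uncasted libraries lay between 0.06 and 0.32. They were also the lowest uncasted libraries for Mt2 (9.06 and 9.34 scaled TPM, the next being 26), Mt1, Depp1 and Pdk4. Without both, an alternative chosen after seeing the data, 8 genes of the list rose and 2 fell, and the median was 0.14. The log2 fold changes were then 3.5 for Mt2, 2.3 for Mt1, 2.53 for Depp1 and 0.75 for Pdk4, all past the threshold in limma. Angptl4, a secreted inhibitor of lipoprotein lipase, rose from 3.65 ± 0.829 to 13.5 ± 1.99 scaled TPM (1.65), and the phosphatase gene Dusp1 fell (-1.13). Of interferon-stimulated and MHC class I genes, of the 28 members, 26 were tested: 3 rose and 6 fell (12 and 1 as deposited), with a median log2 fold change of 0.00. H2-D1 rose (0.46) and Gbp7 fell (-0.74). Bst2 also fell (-0.57), although as deposited it was not called (-0.21, limma adjusted p = 0.137). Of immediate early genes and Kruppel-like factors, of the 21 members, 19 were tested: 7 rose and 3 fell (12 and 1 as deposited), with a median log2 fold change of 0.30. The AP-1 gene Junb rose from 4.31 ± 1.86 to 23.5 ± 10.9 scaled TPM (2.13), and the nuclear receptor gene Nr4a1 fell from 128 ± 19.1 to 45 ± 18 scaled TPM (-1.56).

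Genes of the translation machinery were higher. Among cytosolic ribosomal proteins, of 79 members, 63 rose and 1 fell (78 and 1 as deposited), with a median log2 fold change of 0.37. Rpl3 and its muscle paralog Rpl3l, whose products take the same place in the ribosome, moved apart. Rpl3 ran from 40.6 to 53 scaled TPM (median 48.9) in the uncasted libraries and from 61.3 to 175 (median 155) in the MOTS-c libraries. Rpl3l ran from 393 to 453 scaled TPM (median 427) in the uncasted libraries and from 169 to 366 (median 189.5) in the MOTS-c libraries. In both genes the groups did not overlap. The log2 fold change was 1.54 ± 0.16 (SE; limma adjusted p = 5.5e-07) for Rpl3 and -1.0 ± 0.12 (SE; limma adjusted p = 3.3e-06) for Rpl3l. Rps25, whose groups were apart too, rose by 0.63. Many ribosomal protein genes have pseudogenes of near-identical sequence, which makes their values uncertain. Rpl3 moreover hosts small nucleolar RNA genes.

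Among translation factors and genes of ribosome biogenesis, of 38 members, 24 rose and 2 fell (37 and 0 as deposited), with a median log2 fold change of 0.30. Eif3c, a subunit of an initiation factor, rose from 83.9 ± 7.65 to 195 ± 26 scaled TPM (1.2), and the nucleolin gene Ncl by 0.96. Eif4e, the cap-binding protein gene, fell by 0.50, but its deposited value did not pass (-0.07, limma adjusted p = 0.386). In the list of the integrated stress response and aminoacyl-tRNA synthetases, of the 28 members, 25 were tested: 17 rose and 3 fell (20 and 0 as deposited), with a median log2 fold change of 0.41. Eprs rose from 90.3 ± 7.59 to 177 ± 27.4 scaled TPM (0.95) and Gars by 0.53; Yars fell (-0.41), with a deposited difference of 0.01.

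Chaperones of the endoplasmic reticulum were tested as 19 genes, of which 7 rose and the other 12 did not pass, with a median of 0.14. All 19 were higher as deposited. P4hb (0.76), a disulfide isomerase, and Canx (0.64), calnexin, rose. Among cytosolic heat shock proteins, of 19 members, 4 rose and 6 fell (10 and 0 as deposited), with a median log2 fold change of 0.01. On the scaled values this is near the shares of all genes called. Hsp90ab1 rose from 641 ± 30.9 to 1253 ± 259.6 scaled TPM (0.94). Dnaja1 (-0.52) and Hspb2 (-0.52) fell, and neither was called as deposited (-0.10 and -0.09). Among NRF2 targets and genes of peroxide detoxification, of the 28 members, 27 were tested: 16 rose and 5 fell (24 and 1 as deposited), with a median log2 fold change of 0.29. The cytosolic superoxide dismutase gene Sod1 rose from 219 ± 22.4 to 384 ± 67.6 scaled TPM (0.79) and Gpx4 by 0.58, while the mitochondrial dismutase gene Sod2 fell from 215 ± 8.92 to 132 ± 12.9 scaled TPM (-0.71).

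Among circadian clock genes, of the 19 members, 18 were tested: 5 rose and 9 fell (7 and 4 as deposited), with a median log2 fold change of -0.14. The clock-output gene Hlf fell (-1.24), and so did Nr1d2 (-0.56, deposited -0.14, not passing). AMPK, the energy-sensing kinase, and casein kinase 2 are kinases linked to MOTS-c in earlier work on the peptide. Of 12 of their subunit and kinase genes 2 rose and 4 fell (7 and 1 as deposited). These counts, and the 5 rises among clock genes, lie near the shares of all genes called. The regulatory subunit genes Prkab2 (-0.65, deposited -0.22, not passing) and Prkag3 (-0.85) fell. The catalytic subunit gene Prkaa2 was 92.7 ± 9.85 and 90.9 ± 8.69 scaled TPM and did not pass (limma adjusted p = 0.782), though as deposited it rose by 0.40. The casein kinase gene Csnk2a2 rose (0.55). Csnk2a1, at 0.12 ± 0.06 (SE), did not pass (limma adjusted p = 0.0823) but did without replicate 5 (0.14, limma adjusted p = 0.044).

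Among genes of cholesterol and fatty acid synthesis, of the 22 members, 19 were tested: 3 rose and 5 fell (13 and 1 as deposited), with a median log2 fold change of 0.01. Without replicate 5, 5 rose. The desaturase gene Scd1 rose from 24.7 ± 10.1 to 64.2 ± 15.4 scaled TPM (1.39), Dhcr7 fell (-0.81) and Fdps fell (-0.48, deposited -0.07, not passing). Among cell cycle genes, of the 19 members, 13 were tested: 3 rose and 3 fell (7 and 2 as deposited), with a median log2 fold change of 0.10. Rises and falls on the scaled values were near the shares of all genes called. Cdk4 (0.30) and Rrm2 (0.55) rose and the cyclin gene Ccnd2 fell (-0.72). Rrm2 did not pass when genes of low TPM were also tested (limma adjusted p = 0.0865) or without uncasted replicates 1 and 2 (0.0622), where 1 gene of the list rose.

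Matrix genes were more often lower than higher, with a few strong exceptions. For collagens and matrix, of 39 members, 6 rose and 18 fell (9 and 5 as deposited), with a median log2 fold change of -0.31. The deposited median was 0.09. In mean level, MOTS-c replicates 7 (-0.42) and 8 (-0.79) lay below the uncasted libraries, which ran from -0.32 to 0.23. The other MOTS-c libraries lay between -0.30 and 0.32. In replicates 1 to 4 alone, a division chosen after seeing the data, 6 rose and 18 fell too (median -0.28). Fibrillar Col1a1 (-1.07) and Col1a2 (-1.04) fell, as did the basement membrane genes Col15a1 (-1.1) and Hspg2 (-0.60, deposited -0.18, not passing). Col19a1, a minor collagen, rose from 0.427 ± 0.129 to 9.54 ± 5.01 (2.66), and Postn (1.71), Lox (1.66) and Timp1 (1.49) rose too. At its uncasted level Col19a1 could pass the filter through the MOTS-c libraries alone. Among tendon cell markers, of 12 members, 2 rose and 7 fell (4 and 2 as deposited), with a median log2 fold change of -0.71. Kera (-1.46) and Cilp2 (-1.04) fell and Cilp rose from 8.11 ± 2.81 to 41.7 ± 20.3 scaled TPM (2.16). The summed tendon markers ran from 72.1 to 275 in the uncasted and from 74 to 230.4 in the MOTS-c libraries, so the ranges overlapped almost wholly. The mean level of these markers was low in uncasted replicates 6 to 8 (-0.75, -0.82 and -0.69 relative to the uncasted mean) and in MOTS-c replicates 7 (-1.01) and 8 (-1.22), and lay between -0.17 and 0.60 in the other libraries. In divisions chosen after seeing the data, 2 rose and 8 fell in replicates 1 to 4 (median -0.89), and 3 rose and 0 fell in replicates 5 to 8 (median -0.54). Without uncasted replicates 1 and 2, 3 rose and 3 fell (median -0.61).

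Macrophage markers were higher almost throughout. Of 23 markers 21 were tested: 19 rose, on the deposited scale 20, and the median was 0.96. Their summed level ran from 114 to 152 in the uncasted and from 189 to 417 in the MOTS-c libraries, with no overlap. Cd68, a lysosomal glycoprotein of macrophages, ran from 2.25 to 5.87 scaled TPM (median 3.44) in the uncasted libraries and from 8.23 to 51.2 (median 20.4) in the MOTS-c libraries. The groups did not overlap, and the log2 fold change was 2.36 ± 0.27 (SE; limma adjusted p = 1.7e-06). Cd163, a scavenger receptor of resident macrophages, rose from 5.27 ± 0.831 to 11.7 ± 2.19 scaled TPM (1.0). Csf1r (0.77), Mrc1 (0.96) and C1qb (1.06) rose as well, and Folr2 (0.20) and Timd4 (-0.19) did not pass. The part of these cells in the NF-kB and lysosome lists was not tested.

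Of other immune lists, 2 of the 15 neutrophil and lymphocyte markers were tested and both rose, on both scales: S100a9 (1.79; means from 0.328 to 4.6) and the pan-leukocyte Ptprc (0.64). The defining T cell gene Cd3e was below the filter. The 5 tested markers of MHC class II and dendritic cells had log2 fold changes between 0.04 and 0.21, and 0 passed limma's adjusted or unadjusted threshold. Likewise 0 of 5 erythrocyte markers passed either threshold (0.02 to 0.13), so a difference in blood content was not detected. As deposited, all 5 of each list were higher, like the median gene.

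Endothelial markers were lower on the scaled values: of 17 members, 1 rose and 12 fell (2 and 1 as deposited), with a median log2 fold change of -0.36. The receptor gene Kdr fell (-0.75), Aqp1 fell (-0.49, deposited -0.06, not passing), and the tight junction gene Cldn5 rose from 4.16 ± 1.7 to 9.39 ± 2.9 scaled TPM (1.05). Among smooth muscle and pericyte markers, of 14 members, 1 rose and 7 fell (4 and 1 as deposited), with a median log2 fold change of -0.25. Smtn fell (-0.76), Rgs5 fell (-0.46, deposited -0.03, not passing), and the member that rose was Des, which muscle fibres also express. Among fibro-adipogenic progenitor markers, of 15 members, 1 rose and 4 fell (9 and 1 as deposited), with a median log2 fold change of -0.05. Relative to the uncasted mean, their mean level was -0.48 and -0.49 in MOTS-c replicates 6 and 8. It was between -0.20 and 0.11 in the other MOTS-c libraries. Clec3b (-0.90) and Dpt (-0.51, deposited -0.09, not passing) fell and Osr1 rose (0.30). Without MOTS-c replicate 5, 2 rose, and Osr1 did not pass without uncasted replicates 1 and 2 (limma adjusted p = 0.0641). Among Schwann cell and nerve markers, of the 15 members, 14 were tested: 1 rose and 2 fell (4 and 0 as deposited), with a median log2 fold change of -0.09. Scn7a rose (0.57), while Cnp (-0.30, deposited 0.06) and S100b (-0.32, deposited -0.05) fell on the scaled values and passed in neither direction on the deposited ones. S100b did not pass without MOTS-c replicates 2 and 6 either (limma adjusted p = 0.122).

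Among satellite cell and regeneration markers, of the 13 members, 9 were tested: 4 rose and 1 fell (6 and 0 as deposited), with a median log2 fold change of 0.09. Cdh15, which encodes M-cadherin, rose from 6.78 ± 0.577 to 17.1 ± 3.08 scaled TPM (1.2), and the embryonic myosin gene Myh3 (0.97; means from 0.568 to 2.44) and Itga7 (0.48) rose. Pax7, the defining gene of satellite cells, did not pass (-0.13). Dlk1 fell (-0.41), not so on the deposited scale (-0.23, limma adjusted p = 0.139).

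Adipocyte markers were higher in part. In that list, of the 17 members, 14 were tested: 8 rose and 2 fell (12 and 1 as deposited), with a median log2 fold change of 0.28. Adipoq, the gene of the fat hormone adiponectin, ran from 4.28 to 8.26 scaled TPM (median 7.55) in the uncasted libraries and from 8.48 to 14.6 (median 13.8) in the MOTS-c libraries. Every MOTS-c library was above every uncasted one, by a log2 fold change of 0.76 ± 0.13 (SE; limma adjusted p = 0.000122). Retn, which encodes resistin (from 1.89 ± 0.381 to 5.06 ± 1.43 scaled TPM, 1.04), Cidec (0.95), Cfd (0.89) and the lipase gene Pnpla2 (0.90) rose. Plin1 (0.29) and Fabp4 (0.18) did not pass, and Lpl, which muscle fibres also express, fell (-0.71). The summed markers ran from 2708 to 3531 in the uncasted and from 3591 to 5617 in the MOTS-c libraries, without overlap, most of the sum being Car3, also a muscle gene. How much fat tissue the samples held was not tested.

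**Figure D3:**
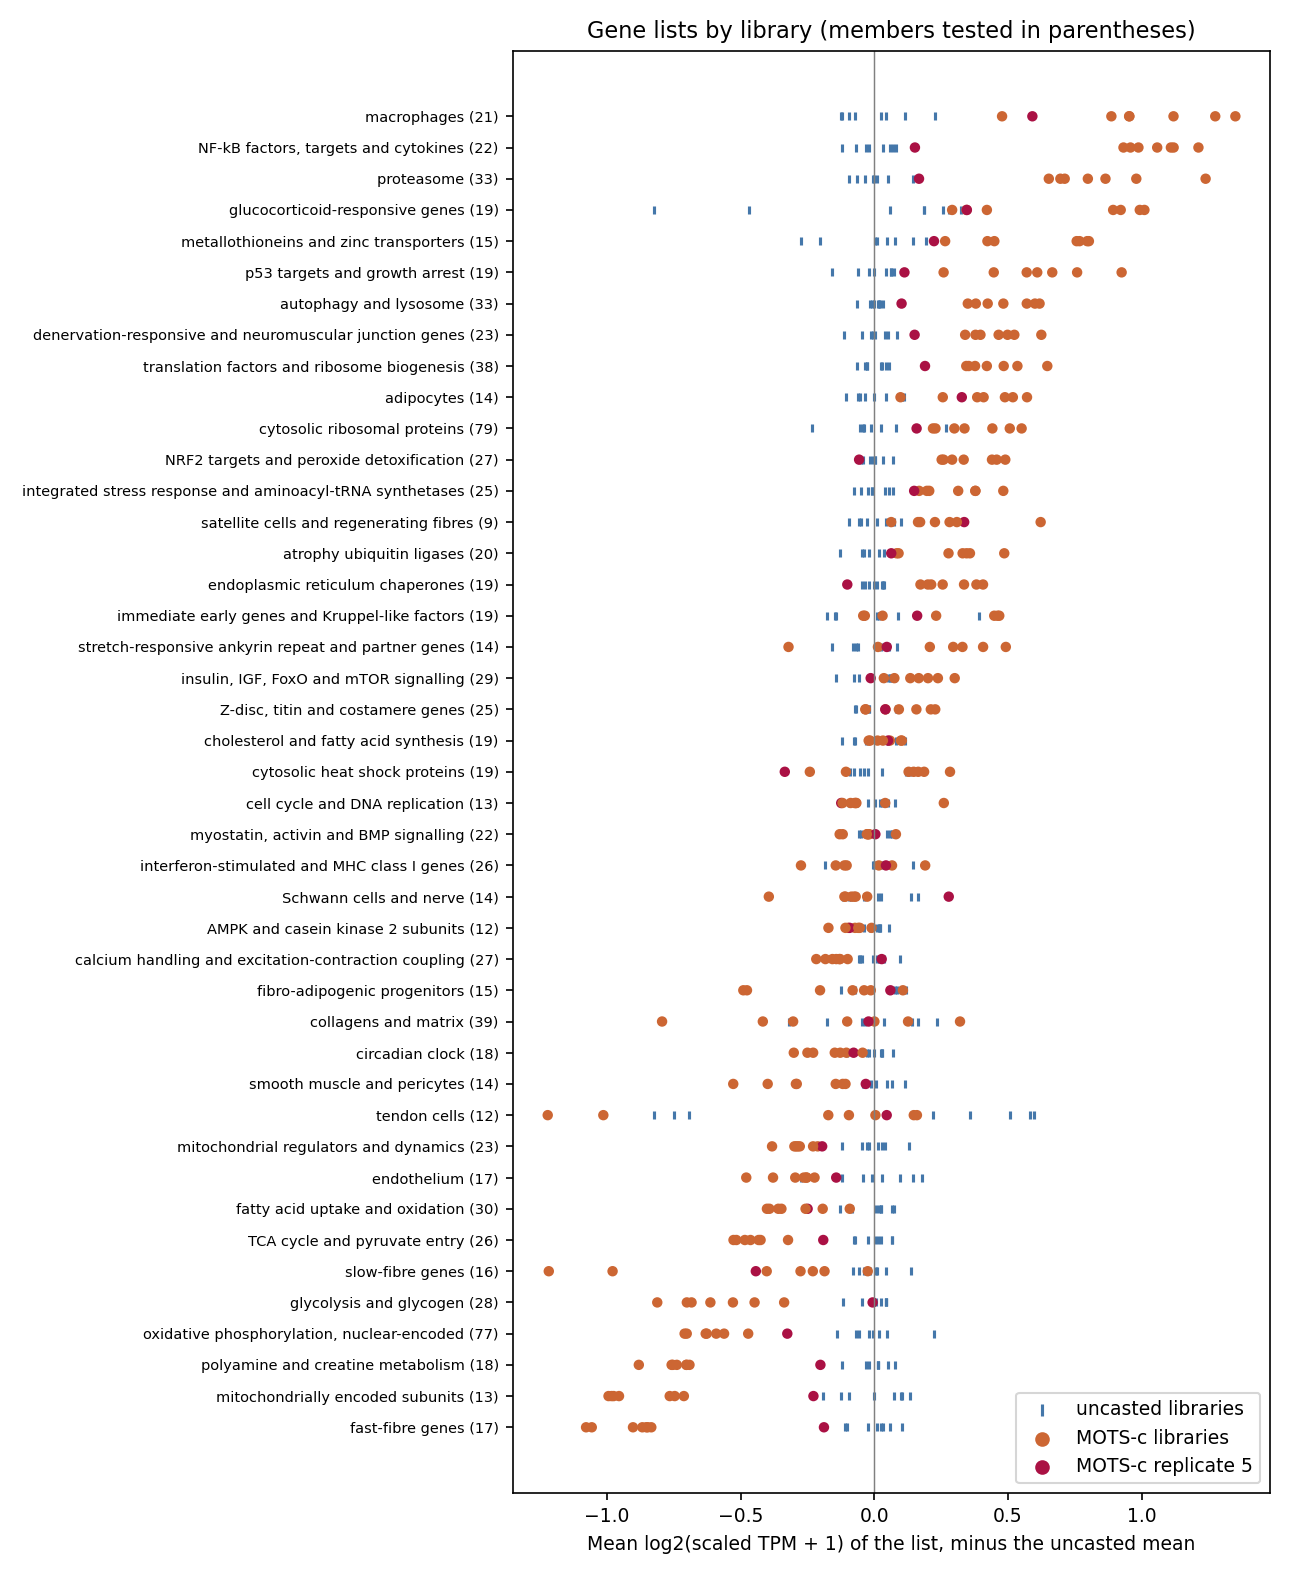
Mean log2(scaled TPM + 1) of each gene list in each library, minus the mean of the uncasted libraries; blue bars are uncasted libraries, orange points MOTS-c libraries, and the dark red point MOTS-c replicate 5. Lists are ordered by the mean of the MOTS-c libraries, from macrophage markers at the top to fast-fibre genes at the bottom; 2 immune lists, the erythrocyte markers and the muscle fibre markers are not drawn.

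The 8 MOTS-c mice differed among themselves in how far they lay from uncasted muscle. The mean level of the proteasome list, relative to uncasted libraries, was lowest in replicate 5 (0.17), with a median of 0.76 and a top of 1.24 in replicate 6. Fast-fibre genes ran from -1.08 in replicate 3 to -0.19 in replicate 5, with a median of -0.86. For glycolysis and glycogen, replicate 5 was at -0.01, the level of uncasted muscle, and the median was -0.57. Macrophage markers were lowest in replicate 8 (0.48), not in replicate 5.

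To describe each MOTS-c library with calls it had no part in, the comparison was repeated without it. At the genes then called, 7 of the libraries had median log2 differences from uncasted muscle of 0.39 to 0.55 for rises and -0.54 to -0.43 for falls. Replicate 5 had 0.20 and -0.22 at the 3805 and 3669 genes called without it, where the other libraries' mean had 0.44 and -0.44. It went in the same direction as the others at 82.3% of those genes, and 47.8% lay outside the uncasted range, against 74.9% to 82.6% for the other libraries.

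**Figure D4:**
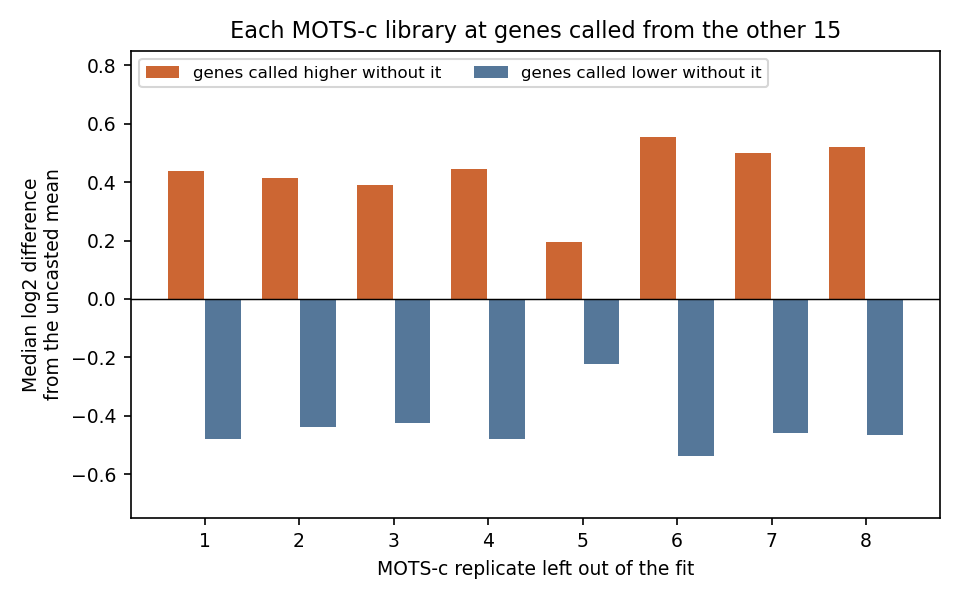
Median log2 difference of each MOTS-c library from the uncasted mean, at genes called higher (orange) or lower (blue) in a fit of the other 15 libraries; the x axis is the replicate left out. Replicate 5 reaches 0.20 and -0.22, and the bars of the other libraries are larger in both directions.

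The genes of largest spread among MOTS-c libraries were picked by SD, which says nothing of the groups. They were Mir1892, Scarna17, Slc15a2, Csrp3, Lcn2 and Smox. Lcn2, which encodes the iron-binding lipocalin-2, ran from 0.351 to 1.26 scaled TPM (median 0.617) in the uncasted libraries and from 2.01 to 23.6 (median 10.3) in the MOTS-c libraries. It varied widely among MOTS-c mice and still did not overlap with the uncasted group (2.43 ± 0.41 (SE; limma adjusted p = 7.6e-05)). Csrp3, a muscle LIM protein gene, ran from 40.6 to 263 scaled TPM (median 80.9) in the uncasted libraries and from 8.87 to 251 (median 103) in the MOTS-c libraries. In the uncasted group replicate 8, at 263, was far above the next value of 99.4, and Csrp3 did not pass (limma adjusted p = 0.978). Slc15a2 (limma adjusted p = 0.865) and Scarna17 (0.872) did not pass either. Mir1892, a short transcript within Sptssa, fell by 1.69 (SE 0.66, limma adjusted p = 0.04) but did not pass without replicate 5 (-1.61, limma adjusted p = 0.0606), without MOTS-c replicates 2 and 6 (0.0553) or without uncasted replicates 1 and 2 (0.104).

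Whether these differences were those of casting with water was asked by comparing the MOTS-c libraries with the 8 casted libraries directly, in a fit of all 24. The comparisons with uncasted muscle share the uncasted libraries, so only this direct contrast is given as a test. Of 14690 genes tested there, 2 were higher with MOTS-c (0.0136%) and 1 lower (0.00681%), and 1986 had an unadjusted p below 0.05. With a variance of its own for each group 0 genes passed, and 1639 had an unadjusted p below 0.05. Both counts of unadjusted p are above a share of 0.05 of the genes tested, the mean share where no gene differs. The 2 higher genes were Cyp2e1 and Arxes2, and the lower one was the predicted gene Gm45808, which was named after its values were seen.

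Cyp2e1, an ethanol- and lipid-oxidizing cytochrome P450 (chr7:140763739-140774987), ran from 10.9 to 24.1 scaled TPM (median 15.2) in the uncasted libraries and from 24.6 to 49.4 (median 39.1) in the MOTS-c libraries. Every MOTS-c library was above every uncasted one, by a log2 fold change of 1.17 ± 0.15 (SE; limma adjusted p = 5.2e-06), and replicate 5 lay mid-group at 37.7. Against casting with water the difference was 0.97 ± 0.16 (SE), with limma adjusted p = 0.0417. Arxes2, a gene expressed in adipocytes with a close paralog, Arxes1, ran from 0.195 to 0.74 scaled TPM (median 0.403) in the uncasted libraries and from 0.842 to 1.8 (median 1.19) in the MOTS-c libraries. Its groups were also apart (0.60 ± 0.09 (SE; limma adjusted p = 3.0e-05)), at low levels, and its difference from casting with water was 0.48 ± 0.09 (SE) (limma adjusted p = 0.0417). Cyp2e1 is a liver gene that fat also expresses, and the adipocyte markers given above rose in part; the part of fat tissue in both results was not tested.

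The leading genes of the comparison with uncasted muscle did not pass in that direct contrast, which does not show that they were alike. For Actc1 the difference of MOTS-c from casting with water was 1.01 ± 0.33 (SE) (limma adjusted p = 0.216), and for Cpne2 -0.51 ± 0.35 (SE) (limma adjusted p = 0.531). Fbxo32 differed by 0.00 ± 0.27 (SE) (limma adjusted p = 1) and Psmd2 by -0.35 ± 0.11 (SE) (limma adjusted p = 0.203). The nearest to passing among the genes named were Cd163, at 0.62 ± 0.13 (SE) (limma adjusted p = 0.0777), and Adipoq, at 0.60 ± 0.14 (SE) (limma adjusted p = 0.0825).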

How the data were processed

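Gastrocnemius RNA of 16 mice was isolated with TRIzol and cleaned on columns, and its poly-adenylated part was sequenced, per the labels' protocols. The authors deposited TPM, 1 table of 55487 mouse genes per library. The tools STAR, RSEM, FastQC and DESeq2 and the build GRCm38.p6 are listed per the submitters' processing notes; versions, annotation release and strand setting are not stated in the sources used here. TPM carry no counts, so depth is unknown and no counting interval can be given.

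TPM were scaled here by an unweighted trimmed mean of log ratios (trimming 30% of the ratios and 5% of the mean levels at either end). Genes reaching 0.5 TPM in 8 or more of the 16 libraries were fitted with limma 3.58.1 in R 4.3.3 (mean-variance trend, 2 group means, no covariates, two-sided, Benjamini-Hochberg over all genes tested, threshold 0.05) on log2(scaled TPM + 1), which understates changes of low genes. A gene near 0 in 1 group could pass the filter through the other group alone, so that its direction was set in part by the filter. The direct contrast with casting and water used a fit of all 24 libraries. Shares per library were compared by exact permutation tests. Each group holds 8 mice and 8 libraries, and the sources used here name no litter, cage or batch.

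Genes named are the 10 steepest rises and the 10 steepest falls among those called (mean of at least 1 in the higher group, no predicted-gene symbol), the 2 members of smallest p and the strongest opposite member of each list, a short list of genes of interest, and the 6 of largest spread; other list members were named after their values were seen, and some genes within these rules are not reported here. The members and lists were chosen with earlier results of these data known. Symbols and coordinates (1-based) come from GENCODE M21, which gave 55227 genes a symbol; promoters come from RefSeq. Alternatives were TPM as deposited, median-of-ratios scaling, a pseudocount of 0.1, no filter, all 24 libraries in the fit, a replicate block, group variance weights, a fold of at least 1.2, libraries left out in turn, and, chosen after seeing the data, replicates 1 to 4 or 5 to 8 alone, and fits without uncasted replicates 1 and 2 or without MOTS-c replicates 2 and 6.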

Additional observations from a re-analysis of the deposited data

Results flagged for a closer look

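Values of the named genes were examined for a library far from the other 7 of its group (Dixon's criterion, which chance meets in about 1 of 20 groups). Of 312 groups examined 36 met it, and in 26 of these the library was MOTS-c replicate 5, each time on the side of the uncasted group. It met the criterion on the first principal component as well, where it lay at -3.38, the nearest other MOTS-c library being at 25.6. The groups examined hold the same libraries, and some genes were picked for large spread among them. The groups are therefore not separate observations, and their number is a description and no test.

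In scaled TPM, with the nearest other MOTS-c library in parentheses, replicate 5 was highest for the polyamine genes Amd1 at 719 (181), Amd2 at 12.8 (2.91), Amd-ps3 at 73.4 (20.6) and Smox at 454 (111). It was also highest for Nrep at 42.5 (16.2), Mettl21c at 96.2 (25.2), Ostn at 7.96 (4.03), Fgfbp1 at 3.72 (1.99), Mlf1 at 171 (89.8) and Mstn at 59.4 (42.8). Among fibre and energy genes it was highest for Casq1 at 1653 (755), Jph2 at 147 (76.2), Stac3 at 161 (121), Ak1 at 748 (454), Pgk1 at 437 (318), Dlat at 78.7 (67.3) and mt-Co1 at 43894 (32787). The same held for Rpl3l at 366 (252), Eif4e at 149 (114), Ccng1 at 365 (302) and Cnp at 7.18 (5.01). It was lowest for Gadd45a at 35.4 (189), Rpl3 at 61.3 (139), Eprs at 115 (165), Eci2 at 69.7 (90.6) and Csnk2a2 at 16 (22.4).

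Other MOTS-c libraries stood out less often. Replicate 6 was highest for Myh1 at 2465, Itga7 at 80.7 and Rrm2 at 5.83, replicate 2 for Cldn5 at 15.8, and replicate 3 for Cilp at 84.3. Among uncasted libraries, replicate 8 was highest for Ankrd1 at 14.0, Ccl8 at 0.842 and Csrp3 at 263 and lowest for Slc30a9 at 72.4, and replicate 1 was lowest for Nr4a1 at 86.4.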

How the results depend on the processing

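Counts of 3621 rises and 3507 falls moved most with the scaling: on TPM as deposited they were 8510 and 1021, with 969 and 109 over 2-fold and 3122 and 276 genes not overlapping. A fold of at least 1.2 left 1267 and 1265, a pseudocount of 0.1 gave 520 and 481 over 2-fold, and replicates 5 to 8 alone, chosen after seeing the data, gave 1859 and 1830. Leaving out each library in turn gave 3428 to 3805 rises, 3299 to 3669 falls, 295 to 383 rises and 239 to 325 falls over 2-fold. Without MOTS-c replicate 5, 1684 and 1642 genes did not overlap and the mitochondrial share differed by -4.87 percentage points. For protein-coding mitochondrial genes alone it differed by -4.17. Group variance weights left 0 genes in the contrast with casting and water.

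Of 158 genes named by rule, 135 kept direction and side of the threshold on the deposited scale, 17 did not pass there, 1 passed only there (Csnk2a1), and 5 turned sign: Atg12 (0.17), Cxcl12 (0.0116), Yars (0.00937), Cnp (0.0642) and Prkaa2 (0.40). The cause was not tested beyond the shift of the median gene. Of 94 list counts (the rises and the falls of each list), 65 moved by more than 1.5 times on the deposited scale, 50 at a fold of at least 1.2, 31 in replicates 5 to 8, 13 in replicates 1 to 4, and at most 4 under any other alternative run on the lists. Median-of-ratios scaling and group variance weights changed none of the 158 calls.

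Replicate numbers are shared between the groups, and the labels tie them to no batch. Deviations of same-numbered libraries from their group means correlated by -0.02 to 0.26. The best partner had the same number for replicates 1 (0.15), 4 (0.11) and 8 (0.26) and another number for the other 5, so the numbers were not taken to pair the samples. On the second principal component (7.33% of variance) scores fell with the replicate number in both groups, though not at every step. They went from 12.6 in replicate 1 to -19.1 in replicate 8 of the uncasted libraries. In the MOTS-c libraries they went from 9.51 to -22.2. Replicates 6, 7 and 8 were lowest in both groups. Whether the numbers mark a shared handling was not tested. A replicate block gave 3614 rises and 3500 falls and changed none of the 158 calls.

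The depth of the libraries is unknown.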
